A study of Mus musculus with 564 samples.

Results

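The VEGFR family inhibitors of this study are 6 clinical kinase inhibitors (CKIs), Apatinib, Vatalanib, Lenvatinib, Telatinib, Vandetanib and OSI930, among 58 CKIs applied to mouse bone marrow-derived macrophages (BMDMs). Their members were all libraries whose column name starts with the name of the inhibitor, which gave 51 of the 564 libraries. Apatinib, Lenvatinib and Telatinib had 8 libraries each, and Vatalanib, Vandetanib and OSI930 had 9 each. The other 52 CKIs contributed 495 libraries and the vehicle, DMSO, contributed 18.

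VEGF receptors are receptor tyrosine kinases best known for driving the growth of blood vessels, and KDR (VEGFR2) is the receptor for which this class of drugs was developed. The same ATP pocket is found in related receptors such as KIT, the PDGF receptors and CSF1R. CSF1R is the receptor through which macrophages receive their survival signal, and BMDMs are grown with its ligand. When such receptors are activated, the RAS-ERK cascade switches on a set of immediate early genes and a set of feedback inhibitors, among them the Sprouty and Spred proteins, the dual specificity phosphatases and the ETS factors Etv4 and Etv5. ChIP-seq was used here to measure acetylated lysine 27 of histone H3 (H3K27ac), which is found at promoters and enhancers in use.

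The cells were wild-type BMDMs of male C57/BL6 mice, pretreated for 1 h with DMSO or a CKI. They were then left without stimulus (UT; the label gives 4 h) or given lipopolysaccharide (LPS, the bacterial ligand of TLR4) or interleukin 4 (IL-4), each at 10 ng/mL, for 30 min, 1, 2 or 4 h. DMSO had 2 replicates in each of the 9 conditions, and each of the 6 inhibitors had 1 library in each of its conditions. No library was available here for Apatinib and Lenvatinib at 4 h of IL-4 or for Telatinib at 1 h of LPS.

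The study set each concentration from the affinity of the inhibitor for an intended target, not from KDR. That target was the necroptosis kinase RIPK3 for Apatinib and OSI930, the PDGF receptor PDGFRB for Telatinib and Vatalanib, and RIPK2, the kinase downstream of NOD receptors, for Lenvatinib and Vandetanib. Concentrations therefore differed between the 6 compounds, and the values are given side by side without a test between compounds. Structurally, Vandetanib is an anilinoquinazoline, Lenvatinib a quinoline carboxamide, Vatalanib an anilinophthalazine, Telatinib a furopyridazine and Apatinib an aminonicotinamide. No response below can be assigned to these differences, because structure and concentration changed together.

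H3K27ac was read at 59190 cis-regulatory elements (CREs) with a median width of 1652 bp, as normalized read counts. The sharpness of each library was summarised by its contrast, which divides the median over the top 10% of CREs by the median over the bottom 10%. Contrast ran from 53.0 to 134.0 in the DMSO libraries, from 3.34 to 67.2 in those of the other CKIs and from 4.29 to 43.3 in the 51 libraries. The median contrast was 11.7 for Apatinib, 10.6 for Vatalanib, 14.9 for Lenvatinib, 19.2 for Telatinib, 17.5 for Vandetanib and 19.4 for OSI930. The low end of this range was 4 libraries with a contrast below 7, a limit chosen after the values were seen. No gap marked it, since the next library had 7.25. These were Lenvatinib with IL-4 at 30 min (6.05) and 2 h (6.31), Lenvatinib with LPS at 4 h (4.29) and Telatinib with LPS at 30 min (5.0), and counts and named values that moved without them are given both ways. The reads behind a library, estimated from the spacing of its values, had a median of 998238 for Apatinib, 906543 for Vatalanib, 1204494 for Lenvatinib, 2819952 for Telatinib, 2852920 for Vandetanib, 1242818 for OSI930 and 4246230 for DMSO.

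**Figure D1:**
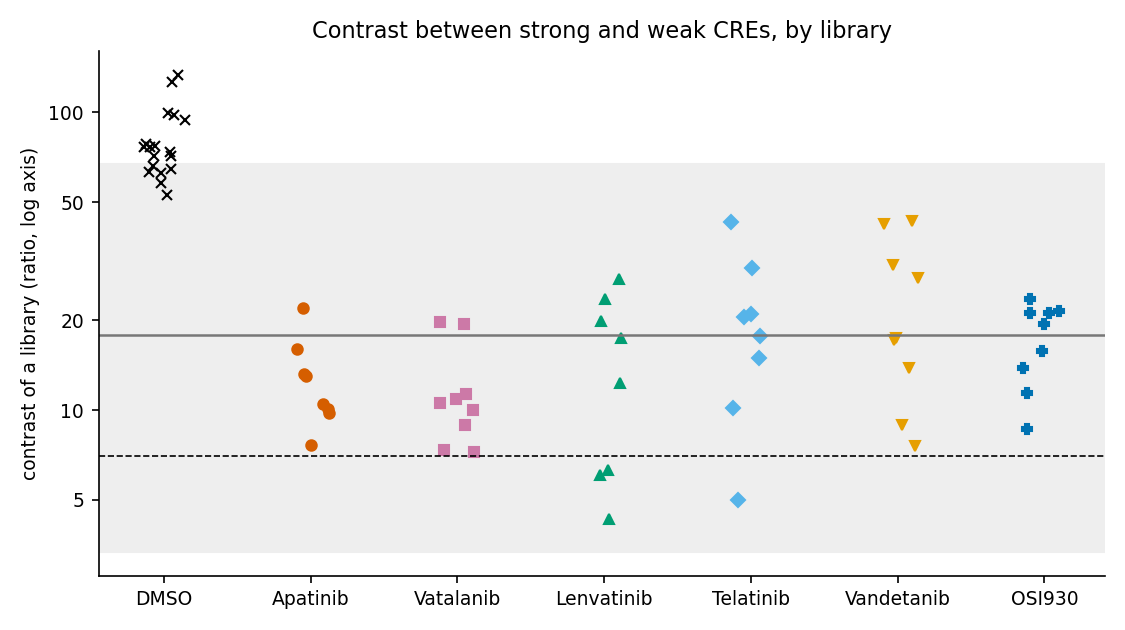
Contrast of each library (y axis, ratio without unit, log scale) for the 6 VEGFR family inhibitors, the DMSO libraries and the other CKIs (x axis), each point 1 library. All 51 points lie between 4.29 and 43.3, below the lowest DMSO library at 53.0.

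Promoters of macrophage markers carried H3K27ac in the 51 libraries. The summed value of 10 macrophage promoters ran from 3820 to 8612 with a median of 6619, against 6671 to 9211 in DMSO. In the other 52 CKIs it ran from 2638 to 9502 with a median of 6959. Markers of other cell types were measured at fewer promoters, none of which had a median of 0, and the sums are not per length. The 3 measured fibroblast promoters summed to 28 to 222 against 7 to 136 in DMSO, the 4 endothelial promoters to 407 to 1485 against 582 to 1793, and the 2 mast cell promoters to 12 to 181 against 7 to 52. The 5 neutrophil and progenitor promoters summed to 209 to 717 against 163 to 406, the 3 dendritic cell promoters to 207 to 621 against 290 to 681, the 2 T cell promoters to 132 to 514 against 170 to 536 and the 3 B cell promoters to 208 to 681 against 204 to 791. In a bulk measurement, fewer cells of a type and less acetylation per cell cannot be told apart. All 51 libraries also had a lower contrast than DMSO, and its part in these sums was not tested.

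Because contrast ranged higher in the DMSO libraries, the main comparison of each compound was with the 8 CKIs outside the family in the same run of table columns. Apatinib and Vatalanib shared 1 such run, Lenvatinib and OSI930 another, and Telatinib and Vandetanib the third. Compounds of the same run were thus compared with the same libraries, and the runs were read from the order of the columns. For each stimulus the fit took all times and the UT libraries together, so that the UT library of a compound enters both its LPS and its IL-4 comparison. A CRE was called when limma gave a Benjamini-Hochberg adjusted p under 0.05 over all CREs and the difference was larger than 0.5 on the log2(value + 5) scale, and errors are standard errors (SE).

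Promoters of ERK feedback genes were low with some of the 6 compounds and with some other CKIs. The sequences of 3 of them are shown because their H3K27ac carries the results that follow: Spred2 and Spred1, which encode inhibitors of the RAS-ERK cascade, and Etv5, which encodes an ETS factor induced by it. Each is the 250 bases upstream of the RefSeq start on GRCm38.p6, 5′ to 3′ on the strand of the gene, at chr11:19924192-19924441 (plus strand) for Spred2, chr2:117120821-117121070 (plus strand) for Spred1 and chr16:22439571-22439820 (minus strand) for Etv5. Capitals mark CpG dinucleotides.
Spred2: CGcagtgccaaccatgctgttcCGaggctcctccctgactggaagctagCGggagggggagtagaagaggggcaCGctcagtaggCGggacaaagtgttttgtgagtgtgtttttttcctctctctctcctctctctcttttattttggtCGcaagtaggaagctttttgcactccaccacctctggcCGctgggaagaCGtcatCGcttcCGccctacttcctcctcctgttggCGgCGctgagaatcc
Spred1: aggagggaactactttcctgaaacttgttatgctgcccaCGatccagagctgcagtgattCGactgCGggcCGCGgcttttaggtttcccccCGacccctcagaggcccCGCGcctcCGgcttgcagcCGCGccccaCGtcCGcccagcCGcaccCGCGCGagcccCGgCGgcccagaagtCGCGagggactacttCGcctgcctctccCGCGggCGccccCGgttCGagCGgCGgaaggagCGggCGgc
Etv5: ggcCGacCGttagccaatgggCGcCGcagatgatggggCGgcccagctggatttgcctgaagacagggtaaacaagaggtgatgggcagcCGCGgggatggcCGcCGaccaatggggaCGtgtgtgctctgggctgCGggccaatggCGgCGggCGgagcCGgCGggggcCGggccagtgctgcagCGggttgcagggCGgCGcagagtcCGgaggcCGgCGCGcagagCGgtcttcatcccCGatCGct

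The Spred2 window held 12 CpGs at 56% GC, the Spred1 window 31 at 70.8% and the Etv5 window 27 at 71.2%, against a median GC of 52.4% over all promoters of the same table. The ETS sequence CCGGAA, searched on both strands, occurs in 12% of 32851 promoter windows of 250 bases, and the AP-1 motif TGANTCA in 6.75%. Neither was matched in the 3 windows shown. Shorter forms of the ETS site were not searched, so their absence is not shown.

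In unstimulated cells the Spred2 promoter CRE (chr11:19923288-19926965, partly in an intron) had normalized counts of 389 and 446 with DMSO. It had 98 with Apatinib, 78 with Vatalanib, 89 with OSI930, 551 with Lenvatinib, 327 with Telatinib and 496 with Vandetanib. The other 52 CKIs ran from 74 to 794 with a median of 453. Apatinib, Vatalanib and OSI930 were far below both DMSO replicates and inside the low end of the other CKIs, Telatinib was below the replicates by less, and Lenvatinib and Vandetanib were above them. Values as low were also found outside the family, mostly in the run of Apatinib and Vatalanib, with 74 for BMS911543, 101 for X396 and 145 for Omipalisib in that run and 130 for Pimasertib in another. Few reads stood behind the low values, about 14 for Apatinib, 40 for Vatalanib and 16 for OSI930. Their 95% Poisson intervals, which cover counting error only, were 53.3 to 164, 56 to 107 and 51 to 145 in normalized counts.

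The Etv5 promoter (chr16:22438840-22440824) had the same 3 compounds low in unstimulated cells. DMSO had 259 and 287, Apatinib 91, Vatalanib 69, OSI930 39, Lenvatinib 352, Telatinib 293 and Vandetanib 308. Among the 58 CKIs, counted from the lowest, OSI930 ranked 1, Vatalanib 3 and Apatinib 6. These ranks pool all runs, and ranks 2, 4 and 5 were BMS911543 (60), Omipalisib (79) and X396 (84), all of the run of Apatinib and Vatalanib. Within their run, 1 of the 8 other CKIs was below Vatalanib at Etv5 and 3 were below Apatinib, while OSI930 was below all 8 of its own run. The Spred1 promoter (chr2:117119324-117121867) had 318 and 325 with DMSO, 105 with Apatinib and 112 with Vatalanib, the 2 lowest of the 58. At Spred1, OSI930 had 167, Lenvatinib 258, Telatinib 333 and Vandetanib 479.

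**Figure D2:**
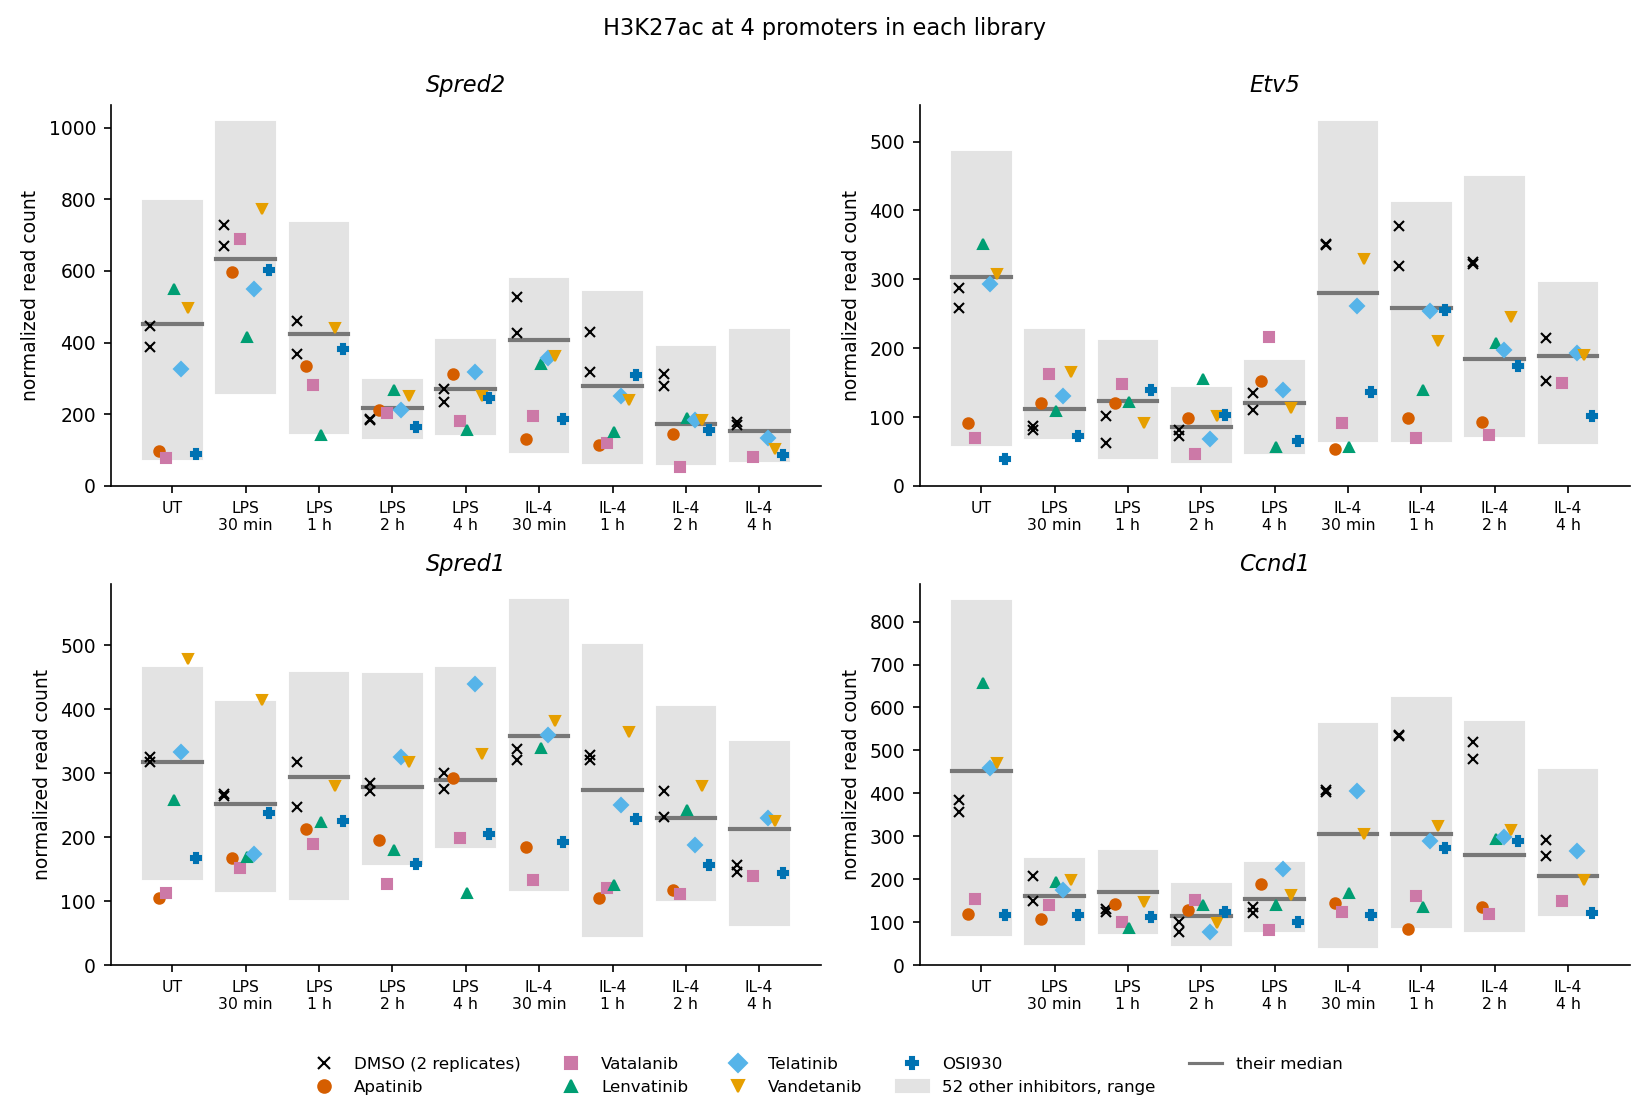
Normalized H3K27ac counts (y axis) at promoters of ERK feedback genes in each condition (x axis: UT and the times of LPS and IL-4) for the 6 compounds, the DMSO replicates and the other CKIs. At Spred2 in UT, Apatinib, Vatalanib and OSI930 lie at 98, 78 and 89, and DMSO at 389 and 446.

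The list of 29 ERK output and immediate early genes, all of which were measured, was read in the same way. In unstimulated cells 23 of the 29 promoters were below both DMSO replicates with OSI930, 16 with Apatinib and 16 with Vatalanib, against 8 with Telatinib, 7 with Lenvatinib and 2 with Vandetanib. Over all CREs with a mean of at least 10 the share below both replicates was 25.1% with OSI930, 19.2% with Apatinib, 20% with Vatalanib, 21.8% with Telatinib, 24% with Lenvatinib and 21.7% with Vandetanib. Over the 14883 CREs that were strongest in DMSO it was 61.7%, 54.8%, 52.1%, 54.9%, 52.8% and 44.8%, so that the counts of Apatinib and Vatalanib are near that background. Counting promoters that ranked among the 10 lowest of the 58 CKIs, where 5.0 of 29 would lie with ranks spread evenly, OSI930 had 23, Vatalanib 17, Apatinib 14, Telatinib 8, Lenvatinib 4 and Vandetanib 0. The median rank over the list was 4 for OSI930, 8 for Vatalanib, 11 for Apatinib, 25 for Telatinib, 28 for Lenvatinib and 41 for Vandetanib. These ranks rest on 1 unstimulated library per compound and are a description, and the share of all CREs among the 10 lowest was not counted. Over 100 listed promoters, the 29 included, those below both DMSO replicates numbered 63 with OSI930, 45 with Vatalanib and 43 with Apatinib. They numbered 32 with Lenvatinib, 30 with Telatinib and 21 with Vandetanib. The order of compounds differed at other times: at 1 h of LPS Lenvatinib had 20 of 29 among the 10 lowest, with a median rank of 3, and OSI930 6, and at 4 h of LPS Lenvatinib had 19, in a low-contrast library, and Apatinib 1. At 30 min of IL-4 Apatinib had 18, Vatalanib 16, Lenvatinib 13, in a low-contrast library, OSI930 12, Telatinib 1 and Vandetanib 0. In UT the contrast was 19.4 for OSI930, 19.4 for Vatalanib, 9.77 for Apatinib, 17.8 for Telatinib, 27.6 for Lenvatinib and 42.1 for Vandetanib. The part of contrast in the ranks was not tested.

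**Figure D3:**
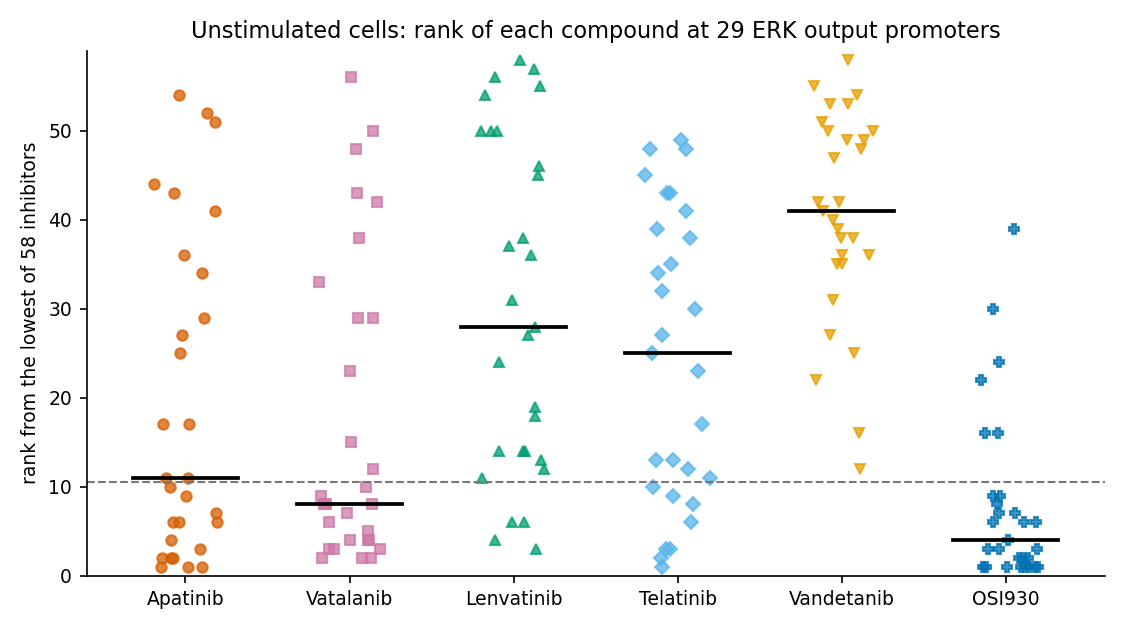
Rank of each of the 29 ERK output and immediate early promoters among the 58 CKIs in unstimulated cells (1 is the lowest value), by compound, each point 1 promoter. Points of OSI930, Vatalanib and Apatinib gather at low ranks, with medians of 4, 8 and 11, and those of Vandetanib at high ranks, with a median of 41.

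Among single members of the list, Dusp6, a phosphatase that inactivates ERK, had 955 and 1096 in unstimulated DMSO cells, 432 with Apatinib, 525 with Vatalanib and 507 with OSI930. Lenvatinib had 1103 at Dusp6, Telatinib 964 and Vandetanib 1027. The proto-oncogene Myc had 581 and 669 with DMSO and 206 with OSI930, the lowest of the 58, with 256 for Vatalanib and 397 for Apatinib. Jun, an AP-1 subunit, had 1176 and 1280 with DMSO, 758 with OSI930, 767 with Apatinib and 853 with Vatalanib, which were ranks 1, 2 and 4 of the 58. Ccnd1, the G1 cyclin D1 (chr7:144938986-144942537), had 357 and 384 with DMSO, 117 with OSI930, 118 with Apatinib and 155 with Vatalanib, against 656, 458 and 471 with Lenvatinib, Telatinib and Vandetanib.

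With IL-4 the Spred2 promoter stayed low with Apatinib and Vatalanib. At 30 min, 1 h and 2 h Apatinib had 132, 115 and 144, and at 30 min, 1, 2 and 4 h Vatalanib had 195, 120, 52 and 81. The medians of the other CKIs of their run were 356, 223, 154 and 161, so that all 3 Apatinib libraries and all 4 Vatalanib libraries lay below them. Below every one of the 8 other CKIs lay 0 of the 3 Apatinib libraries and 1 of the 4 Vatalanib libraries. The difference over UT and IL-4 together was -0.91 ± 0.23 for Apatinib (limma, adjusted p = 0.022) and -1.06 ± 0.21 for Vatalanib (limma, adjusted p = 8.5e-04). Both compounds share the same 8 comparison CKIs.

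Apatinib with IL-4 had 5 of the 29 promoters lower and 0 higher, beside 595 of 59147 CREs called in either direction, or 1.01%. The list median was -0.22 against 0.04 over all CREs, and 26 of 29 estimates were below 0. Besides Spred2 these were Etv5 (-0.82 ± 0.21, adjusted p = 0.022), Ccnd1 (-0.75 ± 0.20, adjusted p = 0.031), Phlda1 (-0.65 ± 0.17, adjusted p = 0.022) and Spred1 (-0.64 ± 0.16, adjusted p = 0.024). Phlda1, a pleckstrin homology protein, had 42 in UT and 73, 78 and 59 at the first 3 times of IL-4 with Apatinib, against 128 and 121 in UT with DMSO.

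Vatalanib with IL-4 had 2 of the 29 promoters lower and 0 higher, beside 500 CREs called (0.845%). The list median was -0.24 against -0.02 over all CREs, with 24 of 29 estimates below 0. The second promoter was Spred1, at -0.57 ± 0.15 (limma, adjusted p = 0.026), with normalized counts of 133, 120, 111 and 139 at the 4 times of IL-4 against run medians of 215, 224, 147 and 164. Of these 4 libraries, 1 lay below all other CKIs of the run. Etv5 missed the threshold at -0.66 ± 0.19 (adjusted p = 0.051), as did Phlda1 at -0.51 (adjusted p = 0.065) and Ccnd1 at -0.42 (adjusted p = 0.3).

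With the other 4 compounds no promoter of the list was called in the IL-4 comparison. OSI930, with 89 in UT and 188, 310, 157 and 86 with IL-4 at Spred2, had a difference of -0.50 ± 0.21 there (adjusted p = 0.51) and of -0.56 ± 0.19 at Etv5 (adjusted p = 0.34). For Spred2 the 95% interval of the difference was -0.52 to 0.30 with Telatinib, -0.48 to 0.34 with Vandetanib and -0.28 to 0.62 with Lenvatinib. All 3 intervals span 0 and leave room for a fall down to their lower bound.

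With LPS limma called 0 of the 29 promoters for each of the 6 compounds. Spred2 rose with LPS at 30 min to 670 and 729 in DMSO, and reached 598 with Apatinib, 688 with Vatalanib, 602 with OSI930, 417 with Lenvatinib, 550 with Telatinib and 773 with Vandetanib. The 3 compounds that were low in unstimulated cells lay inside the 417 to 773 of the other 3 compounds at that time. The Spred2 difference over UT and LPS was -0.15 with Apatinib (95% interval -0.56 to 0.25), -0.38 with Vatalanib (-0.79 to 0.02) and -0.26 with OSI930 (-0.67 to 0.15). Etv5 with OSI930 was -0.68 ± 0.22 (adjusted p = 0.56) and Phlda1 with Apatinib -0.56 (adjusted p = 0.21). Their unadjusted 95% intervals were -1.10 to -0.25 and -0.90 to -0.22. A direct test of the IL-4 against the LPS difference, added after the values were seen, called none of the 29 promoters for any compound, so that the difference between the stimuli is not shown for them.

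The designated targets of OSI930 include KIT and CSF1R besides KDR, and their part in what follows was not tested. With OSI930 the change of these promoters from UT differed from that of its run. Spred2 and Etv5 were low in its single UT library, and that library is subtracted in this test. A higher response there is thus not separate from the low UT value. It does not show a difference in stimulated cells. The test compared the change of OSI930 from UT to stimulated cells with the mean change of the other CKIs of its run. Spred2 went from 89 in UT to 602, 381, 165 and 245 with LPS, while DMSO went from 389 and 446 to 670 and 729, then to 233 and 270 at 4 h. The response was higher by 2.50 ± 0.39 with LPS (limma, adjusted p = 7.4e-06) and by 2.18 ± 0.49 with IL-4 (limma, adjusted p = 0.019). Etv5 lost acetylation with LPS in DMSO, from 259 and 287 to 81 and 87 at 30 min, but went from 39 to 72, 139, 103 and 65 with OSI930. Its response was higher by 2.50 ± 0.45 with LPS (adjusted p = 9.4e-04) and by 2.64 ± 0.45 with IL-4 (adjusted p = 1.5e-04).

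With LPS, 3 of the 29 ERK promoters had a higher response in OSI930 and 0 a lower one, beside 99 CREs called in all (0.167%). The list median was 0.50 against 0.04 over all CREs, with 27 of 29 above 0. The third was Spry4, a Sprouty feedback inhibitor, at 2.91 ± 0.65 (adjusted p = 0.014), with values of 6 in UT and 88, 41, 55 and 50 with LPS. In that UT library 1 read was worth 5.58, so the value of 6 is near 1 read. With IL-4, 5 of 29 were higher and 0 lower, beside 107 CREs called (0.181%), and the list median was 0.45 against -0.02. These were Etv5, Spred2, Myc (1.72 ± 0.33, adjusted p = 0.0017), Dusp4 (1.59 ± 0.29, adjusted p = 8.6e-04) and Spry2 (1.31 ± 0.32, adjusted p = 0.044). Myc went from 206 in UT to 614, 811, 695 and 511 with IL-4, against 581 and 669 to 1237 and 1110 at 30 min in DMSO. Dusp4, an ERK phosphatase, went from 84 to 366, 459, 397 and 288.

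In the other lists 3 promoters had a higher response in OSI930. Ccl2, the monocyte chemokine, went from 28 in UT to 221, 221, 117 and 155 with LPS, a response higher by 2.29 ± 0.54 (adjusted p = 0.027). The STAT-induced feedback genes Cish and Socs1 had responses to IL-4 higher by 1.12 ± 0.27 (adjusted p = 0.033) and 1.12 ± 0.24 (adjusted p = 0.0084). Socs1 went from 162 in UT to 980, 1045, 976 and 849 with OSI930, and from 251 and 274 to 1160 and 1277 at 30 min with DMSO. CREs within 1000 bp of a start made up 16.2% of the 99 CREs with a higher LPS response and 39.0% of the 100 with a higher IL-4 response. Of the 99 CREs with a higher LPS response, 59 gained acetylation with LPS in DMSO and 9 lost it. Across all CREs the response of OSI930 was led by CREs near Btc and Ica1l with LPS (adjusted p = 0.0057 and 0.003) and near Bst1, Ube2f and Ndnf with IL-4 (adjusted p = 3.4e-05 for Ndnf). At all 5 the UT library of OSI930 was listed at 0, where the other CKIs of the run had medians of 54, 51.5, 34.5, 37 and 33.5, so no fold is given. On the lower side Sema6c led with IL-4, from 50 in UT to 10, 17, 12 and 0 (-2.75). All of these responses turn on the same single UT library, and quantile normalization took the adjusted p of Spry4 to 0.061, of Ccl2 to 0.18, of Spred2 with IL-4 to 0.066, of Spry2 to 0.066 and of Cish to 0.096.

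The receptors of the class were read at their own promoters. Csf1r had normalized counts of 1794 and 1744 in unstimulated DMSO cells and a fall to 621 and 610 at 2 h of LPS. In unstimulated cells it had 1324 with Apatinib, 1343 with Vatalanib, 1273 with Lenvatinib, 1573 with Telatinib, 1742 with Vandetanib and 1417 with OSI930, inside the 942 to 1838 of the other CKIs. At 2 h of LPS the 6 compounds ran from 282 with OSI930 to 695 with Lenvatinib, so that the LPS-driven loss occurred with each. Against the run the difference lay between -0.27 and 0.07 with LPS and between -0.16 and 0.22 with IL-4, and none was called. The 95% intervals with IL-4 stayed between -0.32 and 0.38, the latter with OSI930 (0.22 ± 0.08, adjusted p = 0.44).

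Kdr and Kit had low counts. The Kdr promoter (chr5:75977759-75979366) ran from 30 to 162 over the 51 libraries with a median of 78, and from 34 to 132 in DMSO. The Kit promoter (chr5:75640004-75641697) ran from 3 to 123 with a median of 27, and from 1 to 38 in DMSO. Flt1, which encodes VEGFR1 (chr5:147725110-147727161), ran from 23 to 436 with a median of 158 and from 25 to 419 in DMSO, and the condition medians of the other CKIs climbed from 60 in UT to 367 at 4 h of IL-4. No tested CRE overlapped a start of Flt4, which encodes VEGFR3, or of Ret, Fgfr1 or Tek.

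The remaining receptors were read in the same way. The co-receptors Nrp1 and Nrp2 ran from 151 to 1062 and from 310 to 1021, Flt3 from 10 to 113, Pdgfra from 0 to 87 and Pdgfrb from 14 to 162. The intended targets Ripk2 and Ripk3 ran from 133 to 441 and from 30 to 169. Of the ligands, Vegfa ran from 12 to 132, Pgf from 15 to 170, Csf1 from 39 to 346 and the KIT ligand Kitl from 14 to 169. Against the run, Kit lay between -0.16 and 0.39 with IL-4 and between -0.73 with Vandetanib and 0.58 with LPS. No receptor promoter was called against the run with any compound, and of the ligands only Kitl was, with Lenvatinib and IL-4. Within 10 kb of the receptor genes, 1 CRE was called in its level against the run, in the Csf1r region, higher with Apatinib and IL-4, and 1 in its response, in the Flt1 region, higher with Lenvatinib and IL-4.

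With Apatinib, H3K27ac was higher with either stimulus at single CREs near a pair of genes known to be sterol-regulated. No promoter of the sterol synthesis list was called higher with Apatinib against the run, and Stard4 of that list was lower with IL-4. A CRE 805 bp from the start of Mylip, in an intron (chr13:45390909-45392556), had 348 in UT, then 179, 213, 181 and 253 with LPS and 278, 335 and 245 with the first 3 times of IL-4. The run medians were 199 in UT, 140, 136, 80 and 103 with LPS and 168, 124 and 152 with IL-4, and Apatinib exceeded all 8 other CKIs of its run in 7 of 8 libraries. Mylip, a ubiquitin ligase that degrades the LDL receptor, was higher by 0.89 ± 0.17 with LPS (limma, adjusted p = 0.0013) and by 0.98 ± 0.16 with IL-4 (limma, adjusted p = 3.8e-05). DMSO had 184 and 200 at this CRE in UT and 148 and 99 at 30 min of IL-4.

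The second CRE lay 543 bp from the start of Abcg1 (chr17:31056927-31059708), a cholesterol exporter. Apatinib had 453 in UT, 179, 171, 136 and 209 with LPS and 542, 392 and 372 with IL-4, against run medians of 220 in UT and 334, 246 and 290 with IL-4. It exceeded all 8 others in 4 of 8 libraries, and the difference was 0.76 ± 0.18 with LPS (limma, adjusted p = 0.031) and 0.71 ± 0.12 with IL-4 (limma, adjusted p = 1.6e-04). These were the 2 CREs called higher with Apatinib and LPS, beside 50 called lower (0.0845%), 0.0879% of 59163 in all, and after quantile normalization 15 were higher and 69 lower. The lower ones were led by CREs near Atg5, an autophagy gene (-1.90 ± 0.41, adjusted p = 0.011), and Tiprl (-1.83 ± 0.37, adjusted p = 0.006). The UT library is shared by both fits. None of the other CREs named here from either stimulus passed in the comparison with the other stimulus.

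Over the 22 lists, which hold 208 measured genes, no promoter was called against the run with LPS in any of the 6 compounds. Those called with Apatinib and IL-4 outside the ERK list were Tiparp, a target of the aryl hydrocarbon receptor (-0.53 ± 0.14, adjusted p = 0.032), the sterol transporter Stard4 (-0.56 ± 0.15, adjusted p = 0.03), Gclc of glutathione synthesis (-0.67 ± 0.16, adjusted p = 0.016) and Fnip1, a folliculin partner (0.53 ± 0.15, adjusted p = 0.049). Tnf was -0.34 ± 0.09 with adjusted p = 0.031, below the size limit. Of the 595 CREs called with Apatinib and IL-4, 244 were higher and 351 lower. CREs near a start, within 1000 bp, made up 27.4% of the lower and 9.43% of the higher ones, against 21.7% of all CREs. The largest differences were higher near Samd9l (1.74 ± 0.38, adjusted p = 0.0067), Adgre4 (1.52 ± 0.37, adjusted p = 0.017) and Gm9733 (1.51 ± 0.38, adjusted p = 0.022). On the lower side they were near Pilrb2 (-1.84 ± 0.34, adjusted p = 4.2e-04), Mcf2l (-1.79 ± 0.34, adjusted p = 9.1e-04) and Cct6b (-1.66 ± 0.40, adjusted p = 0.013). Counts at these CREs were low, and at Samd9l Apatinib had 46, 63 and 59 with IL-4 against run medians of 17.5, 20.5 and 7.5.

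More CREs were lower than higher with Vatalanib. With LPS 26 were lower and 0 higher (0.0439%; 172 and 46 after quantile normalization), led by CREs near Mocos (-1.59 ± 0.35, adjusted p = 0.035) and Keg1 (-1.56 ± 0.30, adjusted p = 0.0049), and with IL-4 51 were higher and 449 lower (192 and 420 after quantile normalization). The strongest lay near Armc2 (chr10:42022522-42024065), with 0, 0, 30 and 0 at the 4 times of IL-4 against run medians of 39, 65.5, 47 and 46.5. Its difference was -2.13 ± 0.25 (limma, adjusted p = 5.9e-11). In these 4 libraries 1 read was worth 10.3, 9.98, 7.42 and 5.78, so few reads stood behind the values. The spread of the test is shared with libraries of more reads. Rgs21 (-1.88 ± 0.37, adjusted p = 8.2e-04) and Gtf3a (-1.88 ± 0.32, adjusted p = 6.6e-05) followed, and the higher side was led by Heca (1.52 ± 0.41, adjusted p = 0.035), Gpr176 (1.09 ± 0.29, adjusted p = 0.031) and Uncx (1.05 ± 0.30, adjusted p = 0.048). Of the 9 Vatalanib libraries, 3 were at 0 near Armc2 and near Mocos, and 2 near Rgs21, Gtf3a and Keg1.

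Lenvatinib had the most calls with IL-4, 454 higher and 802 lower (2.12%). Without its low-contrast libraries 1 CRE was higher and 117 lower. The largest differences were Rab2a (2.34), Hrh1 (2.23) and Calm4 (1.83) on the higher side and Ezh2, Olfr1507 (-2.21) and a CRE near Pdia4 (-2.03) on the lower side. None of these was called without those libraries. The CRE near Pdia4 (chr6:47739012-47741758) had 421 in UT, 0, 669 and 0 with IL-4, the values of 0 being the low-contrast libraries, and its difference turned to 1.44 without them. Ezh2 was listed at 0 in all 4 libraries, so no fold is given. Its 3 listed promoters were Chac1, a glutathione-degrading enzyme induced by ATF4 (1.12 ± 0.24, adjusted p = 0.0016), Kitl (0.63 ± 0.19, adjusted p = 0.042) and the granule protease Prtn3 (-0.67 ± 0.16, adjusted p = 0.0067). Chac1 had 264, 185 and 190 at the 3 times of IL-4 against run medians of 122, 74 and 59, and 76 and 80 at 30 min in DMSO. Without the low-contrast libraries the differences were 0.85 for Chac1 (adjusted p = 0.32), 0.14 for Kitl (adjusted p = 0.92) and -0.65 for Prtn3 (adjusted p = 0.22). With LPS 1 CRE was higher and 10 were lower (0.0186%), led by App (1.31 ± 0.28, adjusted p = 0.03), Plac8 (-1.33 ± 0.29, adjusted p = 0.045) and a CRE near Spryd7 (-1.30 ± 0.20, adjusted p = 2.6e-05), and without its LPS 4 h library limma called 0.

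The response of Lenvatinib to IL-4 rested on the same libraries. Arg1, the arginase that marks IL-4 activation, went from 153 in UT to 226, 339 and 431 with Lenvatinib, against 123 and 141 to 692 and 604 at 30 min in DMSO. Its response was lower by -1.21 ± 0.28 (limma, adjusted p = 0.014), and without those libraries by -1.13 (adjusted p = 0.46). The interferon-stimulated kinase gene Cmpk2 had a response of -1.52 ± 0.38 (adjusted p = 0.027) and the adhesion receptor Pecam1 of -0.84 ± 0.22 (adjusted p = 0.039), which went to adjusted p = 0.99 and 0.77 without them. In all, 437 CREs had a higher and 67 a lower IL-4 response with Lenvatinib (0.852%), and without the low-contrast libraries 6 and 2. After quantile normalization 64 were higher and 95 lower, and the median of all CREs in the main fit was 0.38. With LPS 32 had a higher response and 0 a lower one (0.0541%), led by Klf3 (adjusted p = 9.7e-06) and Rab20, with 0 and 3 in the UT library against run medians of 49.5 and 43.5, with 19 called without the low-contrast libraries and 1 after quantile normalization. With IL-4 the higher responses were led by Gpm6a, Cdkn1a and Igf2bp3, and the lower ones by CREs near Pdia4, Gm14295 and Ear2, each listed at 0 in both low-contrast IL-4 libraries.

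Telatinib and Vandetanib, whose libraries had the most reads of the 6, were not separated from their run. With LPS limma called 0 CREs for each, with 1134 and 936 at an unadjusted p under 0.05, and with IL-4 0 for each, with 1277 and 1272. Quantile normalization also gave 0 in all of these comparisons. Their responses gave 0 calls by limma as well, with 747 and 965 at an unadjusted p under 0.05 for LPS and 1082 and 1817 for IL-4, and quantile normalization gave 4 and 1 for LPS and 3 and 0 for IL-4. OSI930 had 1 lower CRE with LPS, at B4galt4 (-1.14 ± 0.22, adjusted p = 0.022; 0.00169%), and 5 lower with IL-4 (0.00845%). The latter were led by Fbxl17 (-1.5 ± 0.31, adjusted p = 0.021) and Reep3 (-1.14 ± 0.19, adjusted p = 2.8e-04). Under quantile normalization the adjusted p of B4galt4 was 0.19 and that of Fbxl17 and Reep3 0.12.

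**Figure D4:**
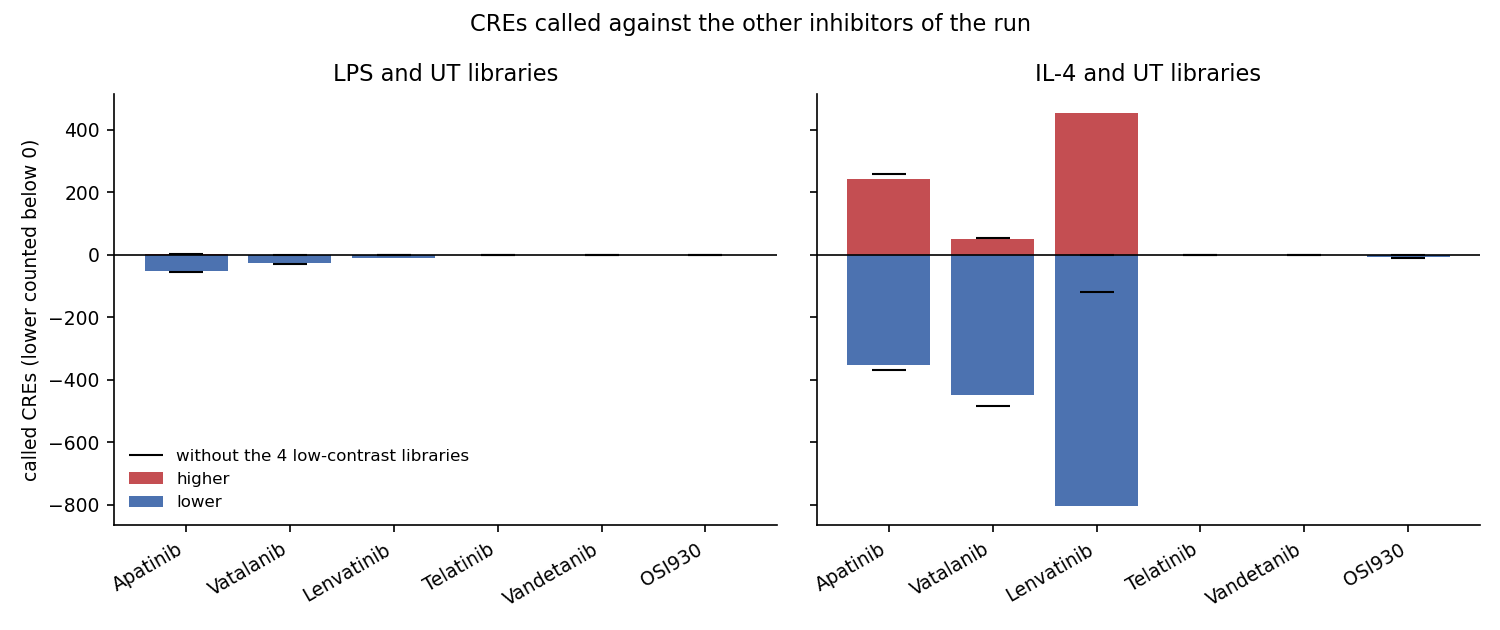
Number of CREs called higher and lower (y axis) for each compound against the other CKIs of its run (x axis), with LPS and with IL-4. The counts reach 454 higher and 802 lower for Lenvatinib with IL-4, and stand at 0 for Telatinib and Vandetanib.

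Changes in response beyond OSI930 and Lenvatinib were few. Apatinib had 7 CREs with a higher (0.0118%) and 4 with a lower (0.00676%) LPS response (0.0186% in all), and 29 and 24 with IL-4 (0.0896%). The higher ones were led by Zfp873 and Map4k3 with LPS and by CREs near Ifnz and Pdia4 with IL-4, all listed at 0 in the UT library of Apatinib, where the run medians were 80.5, 32.5, 243 and 458. The lower ones were led by Mast4 and Pde2a with LPS, with 98 and 146 in UT against run medians of 18.5 and 41.5 (-3.01 and -2.79), and by Denr and Nhsl2 with IL-4 (-3.95 and -3.12). The median response of all its CREs was -0.32 with either stimulus, and after quantile normalization 66 were higher and 3 lower with LPS and 235 and 42 with IL-4. Vatalanib had 3 with a higher LPS response (0.00507%), among them Ets2, an ETS factor, with 14 in UT against a run median of 148 and 245, 222, 99 and 244 with LPS (2.51 ± 0.43, adjusted p = 0.001), and 0 by limma with IL-4, where 2014 had an unadjusted p under 0.05 and quantile normalization called 3. The direct test of IL-4 against LPS called 66 CREs for Apatinib (0.112%), 197 for Vatalanib (0.333%; 28.9% higher, and 57.8% of 529 after quantile normalization), 664 for Lenvatinib (1.12%; 49 without the low-contrast libraries) and 0 for the other 3, with 1281, 1067 and 3460 at an unadjusted p under 0.05 for Telatinib, Vandetanib and OSI930. Among listed promoters it called Atp6v1h, a subunit of the lysosomal proton pump, with Lenvatinib (1.68 ± 0.39, adjusted p = 0.0075; 0.61 and adjusted p = 0.94 without those libraries).

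The size of the stimulus response was read over CREs regulated in DMSO cells. LPS regulated 27124 of 50697 CREs (53.5%), of which 14678 gained acetylation, and IL-4 regulated 11605 of 47018 (24.7%), of which 6414 gained it. The median log2 change from UT at the LPS-gained CREs was 1.12, 1.35, 1.52 and 1.45 at the 4 times in DMSO and 0.70, 0.84, 0.94 and 0.91 in the median of the other CKIs. Apatinib had 0.34, 0.26, 0.23 and 0.44, which were ranks 5 of 58, 3 of 57, 2 of 55 and 4 of 55 from the lowest. Its median over all CREs also fell from UT, by 0.13, 0.31, 0.51 and 0.42. Vandetanib had 0.94, 1.22, 1.34 and 1.39, ranks 52 of 58, 57 of 57, 55 of 55 and 54 of 55, while its median over all CREs was 0.16, 0.44, 0.29 and 0.35.

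The other 4 compounds lay between Apatinib and Vandetanib, except Telatinib at 30 min. Lenvatinib had 0.92, 1.21, 1.22 and 1.27, Vatalanib 0.69, 0.93, 0.73 and 0.77, and OSI930 0.68, 0.76, 0.88 and 0.91. Telatinib had 1.02, 0.81 and 0.72 at its 3 times, of which 1.02 was above the 0.94 of Vandetanib. At the IL-4-gained CREs DMSO had 1.36, 1.27, 1.21 and 1.19, Apatinib 0.53, 0.51 and 0.45 and Vandetanib 1.14, 1.38, 0.81 and 0.84, of which 1.38 was the highest of the 58 at 1 h. Lenvatinib had 1.44, 0.99 and 1.30, the first and last in low-contrast libraries, and 1.30 was the highest of 56 at 2 h. The median over all CREs was 0.67 at 1 h with Vandetanib, and 0.86, 0.13 and 0.58 with Lenvatinib. The contrast of the UT library was 9.77 for Apatinib and 42.1 for Vandetanib, and its part in these medians was not tested.

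**Figure D5:**
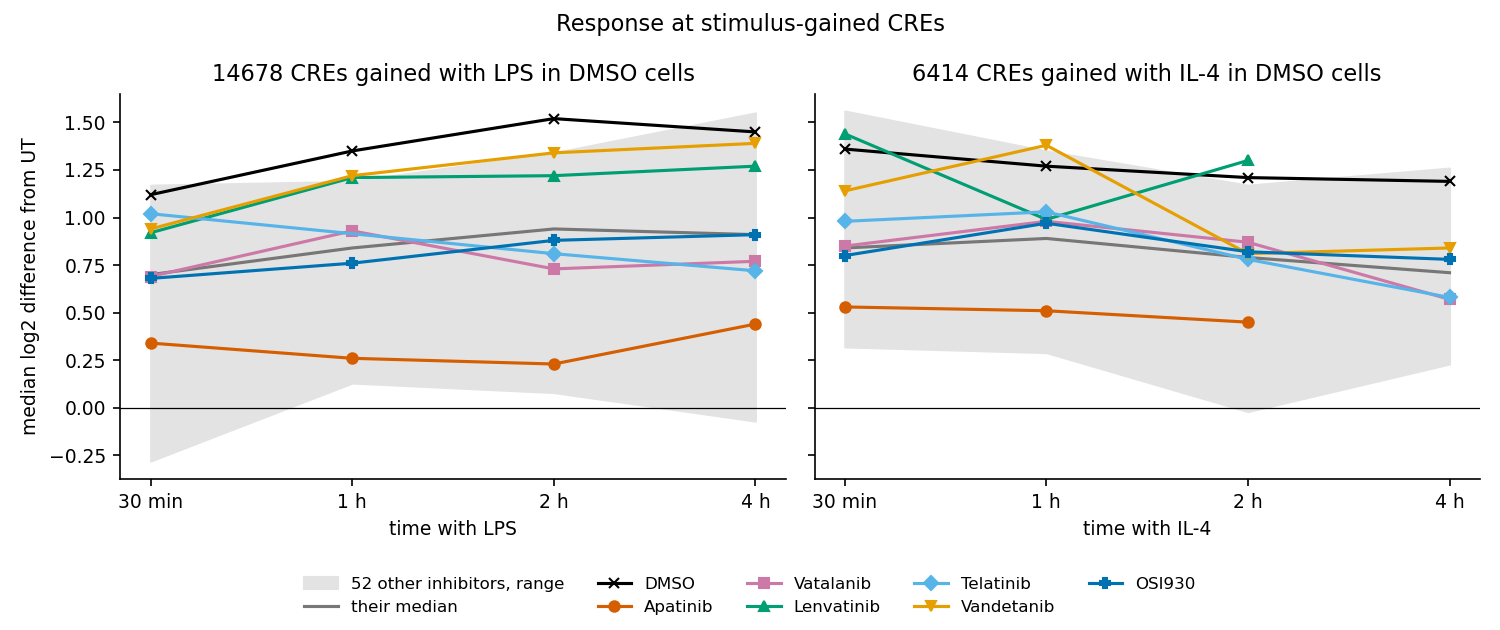
Median log2 change from UT (y axis) over the CREs that gained H3K27ac in DMSO cells, by time of LPS or IL-4 (x axis), for the 6 compounds, DMSO and the other CKIs. At 2 h of LPS DMSO lies at 1.52, Vandetanib at 1.34 and Apatinib at 0.23.

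Single response genes moved little against the run. Arg1 rose with IL-4 from 125 to 317, 371 and 338 with Apatinib, from 121 to 492, 429, 423 and 300 with Vatalanib, from 142 to 544, 493, 387 and 402 with Telatinib, from 156 to 439, 438, 476 and 337 with Vandetanib and from 95 to 472, 467, 587 and 273 with OSI930. Its difference from the run lay between -0.26 and 0.20 and was called in none. Ifnb1, the interferon gene induced through TLR4, had 472 and 423 at 1 h of LPS in DMSO and 242 with Apatinib, 270 with Vatalanib, 363 with Lenvatinib, 317 with Vandetanib and 324 with OSI930. Against the run its LPS difference was 0.08 to 0.45, the latter with Apatinib (0.45 ± 0.21, adjusted p = 0.56). Tnf lay between -0.24 and 0.10 and Nfkbia, the NF-kB inhibitor, between -0.18 and 0.14, and neither was called with LPS.

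As a family of 6 against the other 52 CKIs, with the run as a term, the compounds shared almost no difference. Over all LPS times and over all IL-4 times limma called 0 CREs, with 2389 and 3718 at an unadjusted p under 0.05, and quantile normalization called 1 and 3. In unstimulated cells 1 CRE was called (0.00169%), near Usp6nl (chr2:6272819-6274391), at -1.16 ± 0.21 (adjusted p = 0.028). It had 21 with Apatinib, 31 with Vatalanib, 10 with Lenvatinib, 17 with Telatinib, 29 with Vandetanib and 6 with OSI930, against 19 to 85 in the others, while DMSO had 20 and 17. The ranges overlap, and its adjusted p ran from 0.0096 to 0.61 when 1 compound was left out. None of the 29 ERK promoters was called in this test, with 8 at an unadjusted p under 0.05 and a list median of -0.15 against -0.03 over all CREs.

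Time by time, LPS gave 0 calls for the family, with 2885, 1927, 2766 and 2918 CREs at an unadjusted p under 0.05, and IL-4 gave 1 at 30 min (0.00169%), 2 at 1 h (0.00338%), 0 at 2 h (5664 at an unadjusted p under 0.05) and 2 at 4 h (0.00338%). All 5 were lower. At 30 min a CRE 6595 bp from the start of Aldh2, an aldehyde dehydrogenase (chr5:121563799-121565386), was -1.15 ± 0.20 (adjusted p = 0.013). At 1 h the promoter of Rbm38, an RNA-binding protein (chr2:173021066-173022663), was -1.18 ± 0.22 (adjusted p = 0.019), with a Vatalanib library at 0 and the other 5 at 38 to 72 against a median of 83.5. A CRE near Pdia4 (chr6:47761306-47762840) was listed at 0 in all 6 libraries, but also had a median of 0 in the other CKIs of the second run, so no fold is given.

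At 4 h, where 4 of the 6 compounds had a library, Fkbp5, a glucocorticoid-induced chaperone (chr17:28427028-28429823), was -0.84 ± 0.16 (adjusted p = 0.023), with 69 for Vatalanib, 130 for Telatinib, 156 for Vandetanib and 101 for OSI930 against a median of 162. Susd1 (chr4:59367518-59369119) was -1.68 ± 0.30 (adjusted p = 0.02), with 12 for Vatalanib and 0 for OSI930 but 40 and 45 for Telatinib and Vandetanib against a median of 50. Leaving out 1 compound in turn moved the adjusted p from 0.0016 to 0.076 at Aldh2, from 0.0053 to 0.98 at Rbm38, from 0.018 to 0.31 near Pdia4, from 0.005 to 0.73 at Fkbp5 and from 0.0011 to 0.39 at Susd1. None of the 5 therefore held without each compound.

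Against DMSO a large share of all CREs differed, and contrast was lower in the libraries of the 6 compounds. Its part was not tested. With LPS 44.4% of 59163 CREs were called with Apatinib, 52.9% with Vatalanib, 44% with Lenvatinib, 37.4% with Telatinib, 26% with Vandetanib and 34.1% with OSI930. With IL-4 the shares were 52.7%, 52.2%, 53.7%, 38.8%, 37.3% and 40.3%. Without the low-contrast libraries the calls of Lenvatinib went from 31756 to 1943 with IL-4 and from 26056 to 13749 with LPS, and those of Telatinib from 22124 to 6177 with LPS. The share of all CREs called higher was 38.2%, 43%, 40.3%, 34.2%, 24.9% and 29.9% with LPS and 48.4%, 46.4%, 50.3%, 37.5%, 34.3% and 38.6% with IL-4, in the same order. Most calls were thus higher, between 81.2% and 96.7% of them, and the median of all CREs lay 0.38 to 0.64 above DMSO. After quantile normalization between 120 and 8732 CREs were called, of which 35.1% to 73.3% were higher. Values below are therefore read against the median of all CREs, and all 6 comparisons share the 18 DMSO libraries.

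Of the ERK promoters, 9 of 29 were lower than DMSO with Apatinib and IL-4, 10 with Vatalanib, 8 with OSI930, 6 with Lenvatinib, 0 with Telatinib and 0 with Vandetanib, beside 4.32%, 5.78%, 1.75%, 3.44%, 1.27% and 2.92% of all CREs. After quantile normalization the counts were 8, 8, 3, 4, 0 and 0, and without the low-contrast libraries Lenvatinib had 0. The largest falls were Ccnd1 and Etv5 with Apatinib, both -1.83. With LPS 3, 5, 5, 1, 0 and 3 were lower with Apatinib, Vatalanib, Lenvatinib, Telatinib, Vandetanib and OSI930, and after quantile normalization 1, 2, 1, 0, 0 and 0. Without the low-contrast libraries Lenvatinib had 2 and Telatinib 0 with LPS.

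Interferon-stimulated genes were low with LPS against DMSO. Of 21 promoters, 10 were lower with Apatinib, 13 with Vatalanib, 4 with Lenvatinib, 7 with Telatinib, 6 with Vandetanib and 13 with OSI930, and 0 were higher with any, beside 6.14%, 9.92%, 3.77%, 3.19%, 1.06% and 4.11% of all CREs lower. The largest falls were Ifit3 with Vatalanib (-1.74) and Gbp5 with Apatinib (-1.07). After quantile normalization 3 were lower with Apatinib, 4 with Vatalanib and 0 with the others, and without the low-contrast libraries Lenvatinib had 1 and Telatinib 4. Of 24 cytokine and NF-kB feedback promoters 1 to 11 were lower with LPS, led by Ccl2 and Ccl3 with Vatalanib (-1.43 and -0.89), and 0 to 3 were higher, led by Nos2 with Telatinib (1.10) and Cxcl3 with Vandetanib (0.87). After quantile normalization 0 to 2 were lower. Over all CREs 24.9% to 43% were higher and 1.06% to 9.92% lower with LPS. With IL-4 7 to 11 of the 24 were higher, a share near the 34.3% to 50.3% of all CREs, led by Il12b and Cxcl1 with Apatinib (2.08 and 1.82), and 2 to 6 after quantile normalization. Of 21 IL-4 response genes 2 were higher with IL-4 and 0 to 3 lower, led by the chemokines Ccl22 with Lenvatinib (2.00) and Ccl17 with Apatinib (1.87), and by Arg1 with Apatinib (-0.78) on the lower side. Over all CREs 34.3% to 50.3% were higher and 1.27% to 5.78% lower with IL-4. After quantile normalization 0 of the 21 were higher and 0 to 2 lower. Of 20 genes of macrophage lineage and survival that depend on CSF1R, 1 to 8 were lower with LPS and 1 to 5 with IL-4, led by Bcl2a1a with Vatalanib (-1.24) and Tfec with Telatinib (-1.14) for LPS, and 0 were higher. After quantile normalization 0 to 2 were lower with LPS and 0 to 3 with IL-4, and 0 to 1 were higher. Over all CREs 1.06% to 9.92% were lower with LPS and 1.27% to 5.78% with IL-4, by compound. Against the run no promoter of this list was called with LPS.

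In the metabolic and stress lists, each of 5 to 13 measured genes, 0 to 6 promoters were called in either direction, and 0 to 4 after quantile normalization. Over all CREs 24.9% to 50.3% were called higher and 1.06% to 9.92% lower. With LPS Cyp1a1, the detoxifying target of the aryl hydrocarbon receptor, was 2.02 with Vatalanib, and Cyp1b1 1.60 with Lenvatinib. Tiparp of the same list was -0.79 with Lenvatinib. After quantile normalization 0 promoters of that list were called with LPS. The hypoxia gene Egln3 was 1.06 with Vatalanib, Hk2 -0.68 with Apatinib and the lysosomal gene Gla -1.04 with Vatalanib. Of the receptors Csf1r was -0.79 with Lenvatinib and Pdgfra, a weak promoter, 2.18 with Telatinib. With IL-4 Kit was 2.59 with Apatinib and Pdgfra 2.22 with Vandetanib, both at low counts. Markers of other cell types went both ways. With Apatinib and IL-4 Pax5 and Ebf1, transcription factors of B cells, were 2.34 and 2.35 and Camp, a neutrophil granule peptide, 2.13, while with Vatalanib and LPS the endothelial genes Pecam1 and Cdh5 were -1.11 and -0.80. Other endothelial genes were higher: Vwf with Lenvatinib and LPS (1.19) and with Apatinib and IL-4 (0.69), and Kdr with Lenvatinib and IL-4 (0.59). Of the dendritic cell genes with Vatalanib and LPS, Flt3 was 1.69, Xcr1 -0.93 and Clec9a -0.64. The summed B cell markers had a median of 371 in the 51 libraries and 360 in DMSO, the endothelial ones 826 and 1062 and the dendritic cell ones 349 and 428. Fibroblast markers had 98 and 26.5, mast cell ones 54 and 17, neutrophil and progenitor ones 461 and 314 and T cell ones 241 and 219. Medians in the other 52 CKIs were 89, 54, 409 and 239 for fibroblast, mast cell, neutrophil and progenitor, and T cell markers. For endothelial, dendritic cell and B cell markers they were 889, 329 and 367. The part of these markers in the results was not tested. After quantile normalization none of the receptor promoters was called with LPS, and of the receptors at most 1 was called higher with IL-4.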

How the data were processed

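H3K27ac ChIP-seq was analysed in 564 libraries. Per the labels and the study's methods, the authors mapped single-end reads to mm10 and counted them at accessible regions; the submitters' processing notes name Bowtie and SAMtools, without versions. The deposited values were treated as a score, since the authors scaled the counts and then gave them without decimals. In each of the 51 libraries at least 99.1% of the values lay on multiples of the value of 1 read, but whole reads could not be recovered for all libraries, so no count model was used. Total values per library ran from 5524704 to 10131555, and estimated reads from 523788 to 4798135 in the 50 libraries that gave an estimate; intervals from reads cover counting error only.

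Values were tested as log2(value + 5) at CREs with a mean of at least 10, with limma 3.58.1 (trend) in R 4.3.3, Benjamini-Hochberg adjusted over all CREs for each compound. Fold changes on this scale understate the change of low CREs. Terms were time and compound, with run for the family. CREs regulated in DMSO had a moderated F test with adjusted p under 0.01 and a change over 1 on the log2 scale. Ranks are counted among 58 CKIs or those with a library. The replicate numbers of DMSO were not in the model. Whether replicates are separate cultures is not given, so p-values measure only the spread between these libraries.

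The members, the gene lists and the tests were chosen with earlier results of these data known. A gene was read at its promoter CRE, the tested CRE within 1000 bp of any annotated start with the highest mean; 208 of 258 listed genes had one. Named genes were every receptor and intended target, called genes of lists with up to 4 calls, otherwise the 2 largest in each direction, and Ifnb1, Csf1r, Nfkbia, Tnf and Arg1; against DMSO the rule was applied over the 6 compounds together. Named CREs were the 2 with the largest difference in each direction per compound, 3 above 100 calls, with the nearest protein-coding start. Values of Dusp6, Myc, Jun and the other unstimulated levels of ERK genes were named after they were seen. Sequences are from RefSeq on GRCm38.p6.

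In simulated data with 200 changed CREs among 59163 in the LPS comparison with the run, changes of 1.0 on the log2 scale were recovered in 48.4% to 56.7% and of 1.5 in 85.9% to 94.8%, with 3 to 7 false calls. The simulation gave each CRE the same spread in all libraries. It therefore does not give the false calls to be met in libraries with few reads or low contrast. Alternatives were pseudocounts of 1 and 20, no filter, quantile normalization, contrast as a covariate, no run term, all 52 other CKIs as reference, each compound or DMSO replicate left out, and a replicate block. Tables were read with Python 3.11.15, pandas 2.3.3 and numpy 2.4.6, and figures drawn with matplotlib 3.10.9. The result of 1 listed gene is not reported here.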

Additional observations from a re-analysis of the deposited data

Results flagged for a closer look

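Responses to a stimulus that differed, by the test of the difference itself, between a compound and the other CKIs of its run are listed here as values. With OSI930 the LPS response was higher by 2.91 at Spry4, 2.50 at Spred2, 2.50 at Etv5 and 2.29 at Ccl2 on the log2 scale. The UT value at Spry4 was near 1 read, and that at Etv5 rested on about 7 reads. With OSI930 the IL-4 response was higher by 2.64 at Etv5, 2.18 at Spred2, 1.72 at Myc, 1.59 at Dusp4, 1.31 at Spry2, 1.12 at Cish and 1.12 at Socs1. With Lenvatinib the IL-4 response was lower at Cmpk2 (-1.52), Arg1 (-1.21) and Pecam1 (-0.84), and none of these was called without its low-contrast libraries. All values for OSI930 share 1 UT library. Each of the 6 compounds had 1 library per condition and DMSO 2, so no library could be tested for lying apart from its replicates.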

How the results depend on the processing

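Counts of called CREs, summed over the 6 compounds, moved with the scaling. Against DMSO they went from 141227 with LPS to 14821 with quantile normalization and 6558 with contrast as a covariate, and from 162567 with IL-4 to 25724 and 26330. Against the run they went from 90 with LPS to 475 with a pseudocount of 1, 12 with 20, 356 with quantile normalization, 237 with the covariate and 3937 against all 52 CKIs, and from 2356 with IL-4 to 5353, 4093 and 11191 under the last 3, and to 1289 without the 4 low-contrast libraries. The responses went from 145 with LPS to 842 and 13 with pseudocounts of 1 and 20, and from 664 with IL-4 to 1541 and 155, and to 205 without the low-contrast libraries. The IL-4 minus LPS test went from 927 to 1872 with a pseudocount of 1, 2326 with quantile normalization and 387 without the low-contrast libraries. For the family, the UT count of 1 became 0 with a pseudocount of 20, 0 with quantile normalization and 5 without a run term, the LPS mean count of 0 became 1 with quantile normalization and 1 with the covariate, and the IL-4 mean count of 0 became 3 and 3. By time, the LPS count of 0 became 2 with a pseudocount of 1, 1 with quantile normalization, 3 with the covariate and 2 without the low-contrast libraries, and the IL-4 count of 5 became 32, 21, 42 and 8, with 1 for a pseudocount of 20 and 14 without a run term. Leaving out 1 compound gave 0 to 6 in UT (6 without Lenvatinib, 0 without Apatinib, Telatinib or OSI930), 0 to 0 for both means, 0 to 4 for LPS by time (4 without Lenvatinib) and 9 to 86 for IL-4 by time (86 without Vandetanib, 78 without OSI930, 67 without Telatinib). Leaving out 1 DMSO replicate gave 99024 to 115233 calls with LPS and 136152 to 138767 with IL-4. The DMSO-regulated CREs numbered 24326 to 27360 for LPS and 10197 to 11858 for IL-4 with 1 library left out, and with the replicate block 27063 and 11605, so the block changed no call count by over 1.5 times; no paired analysis was possible because each of the 6 compounds had 1 library per condition, for all other results. Directions turned against DMSO at Atf4 with Vatalanib and LPS (0.06 with quantile normalization, 0.23 with the covariate), and with the covariate at Hmox1 (0.04) and Insig1 (0.12) with Vatalanib and at Cxcl10 (-0.47), Cyp1a1 (-0.26) and Slc7a11 (-0.07) with Lenvatinib and IL-4. Vegfa with Lenvatinib turned to -0.03 with quantile normalization, and the CRE near Pdia4 with Lenvatinib to 1.44 without the low-contrast libraries. The cause was not tested for any of these. Of the values of named genes and CREs under an alternative, 1124 kept direction and side of the threshold, 314 lost the call and 10 reversed, and of the counts of single compounds 169 stayed within 1.5 times and 119 moved. Depth limits the low-count CREs, since 7 to 40 reads stood behind the unstimulated values of Spred2 and Etv5 in the 3 compounds where they were low.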
